A study of Homo sapiens with 21 samples.

Results

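IMR90 human fetal lung fibroblasts made senescent by ionising radiation and then depleted of both CDK4 and CDK6 were compared with proliferating IMR90 fibroblasts, to describe what part of the senescent expression state remained when both kinases were low. The comparison took the 3 libraries of the dual knockdown and the 3 libraries of proliferating cells, 6 of the 21 libraries of the series, and the 10952 of 16383 listed genes with a normalised count of 10 or more in at least 3 of these 6 libraries. The dual knockdown cells were irradiated, given siRNA against CDK4 and CDK6 (5 nM) in transfections on day 4 and again on day 7, and collected on day 10, all counted from irradiation. The non-targeting controls, 3 libraries of the siRNA NT3 and 3 of NT4, were irradiated, transfected and collected on the same days. The proliferating cells were neither irradiated nor transfected. Irradiation, transfection and knockdown therefore cannot be told apart in a difference between dual knockdown and proliferating cells, whereas the non-targeting controls differed from the dual knockdown, per the labels, in the siRNA alone. One siRNA treatment was used per target, so effects of an siRNA on other transcripts cannot be told apart from effects of its target. Nothing in the labels says that the 3 libraries of a group came from separate cultures, so every p-value measures the spread between these libraries, which may be technical.

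CDK4 and CDK6 are the cyclin D-dependent kinases of the G1 phase. With a D-type cyclin they phosphorylate the retinoblastoma protein RB, which releases E2F transcription factors and allows the genes of DNA replication to be expressed; RB-related proteins in the DREAM complex hold the genes of mitosis low in resting cells through short promoter elements named CHR and CDE. Senescent cells leave the cell cycle for good under p53, its target p21 and the inhibitor p16, lose lamin B1 from the nuclear envelope, enlarge their lysosomes, and secrete cytokines, proteases and growth factors, the senescence-associated secretory phenotype, driven in large part by NF-kB and accompanied by an interferon response. Drugs that block CDK4 and CDK6 arrest proliferating cells in G1.

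The 6 libraries held 15466207 to 18823490 reads in listed genes, within the 12892442 to 21822152 of the series, and no library had more than 9.61% of its reads in its 10 top genes, led in each of the 21 by COL1A1, which encodes collagen I. The summed normalised counts of 12 fibroblast markers were 684542 to 869949 in dual knockdown and 611888 to 628210 in proliferating libraries, against 454351 to 565559 in the controls, and none of the 12 was at 0. The sum of 10 immune cell markers was 944 to 1014 in dual knockdown and 663 to 698 in proliferating libraries, and 908 to 1466 in the controls; CD3E, MS4A1 and AIF1 had no read in either of the first pair of groups. The sum of 10 epithelial markers was 2219.9 to 2481 and 2193 to 2412 in dual knockdown and proliferating libraries, with KRT5, SFTPC and NKX2-1 at 0 in both. The sum of 8 endothelial markers was 3478 to 3756 in dual knockdown, 1799 to 1932 in proliferating and 2105 to 3809.9 in control libraries. That sum rested on TEK and EGFL7, the only members that passed the filter on level. The other endothelial markers had at most 15.5 normalised counts in any of the 6 libraries. The part of these markers in the results was not tested, and in these bulk libraries fewer cells of a type and less RNA per cell cannot be told apart.

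Both targets were low in the dual knockdown. CDK4 (chr12:57747727-57752310, GRCh38) had 2183, 2160 and 2219 normalised counts in proliferating cells and 123, 115 and 115 in dual knockdown. The control libraries lay between, at 1158 to 1356. CDK4 in dual knockdown stood at 5.37% of its proliferating mean and 9.41% of its control mean, with log2 fold changes of -4.21 ± 0.07 (SE) and -3.40 ± 0.06 (limma adjusted p = 2.5e-21 and 2.2e-20). CDK6 (chr7:92604921-92836573) had 3483, 3520 and 3706 normalised counts in proliferating cells, 4147 to 5689 in controls and 930, 975 and 998 in dual knockdown. It fell to 27.1% of the proliferating mean and 20.6% of the control mean (log2 fold changes -1.88 ± 0.09 and -2.27 ± 0.08, limma adjusted p = 1e-13 and 8e-15). No group overlapped another for either kinase. In the controls CDK4 was lower than in proliferating cells (-0.81 ± 0.06) and CDK6 higher (0.39 ± 0.08).

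Most genes differed between dual knockdown and proliferating cells. A gene was called when limma's test on log2(normalised count + 1), with Benjamini-Hochberg adjustment over all 10952 genes, gave an adjusted p under 0.05. Of the genes tested, 7389 (67.5%) were called, 3591 (32.8%) higher and 3798 (34.7%) lower in dual knockdown, and 917 (8.37%) were higher and 1061 (9.69%) lower by more than 1 on the log2 scale. The dual knockdown and proliferating libraries did not overlap for 8220 genes (75.1%). The same fit called 7582 genes (69.2%) between the controls and proliferating cells, 3404 (31.1%) higher and 4178 (38.1%) lower. Between dual knockdown and the controls it called 4915 genes (44.9%), 2612 (23.8%) higher and 2303 (21%) lower. Changes there were smaller: 56 genes were higher and 422 lower by more than 1. Centring every library on its median raised the median of all genes by 0.12 against proliferating cells, and moved the share of higher calls from 48.6% to 59.1% for dual knockdown and from 44.9% to 56.4% for the controls. Signed values with ± below are log2 fold changes with their standard error (SE), on the log2(normalised count + 1) scale, which understates the change of genes with low counts. A list below is described by its count of calls and its median log2 fold change, to be read against these shares and against medians of all genes of -0.02 (dual knockdown against proliferating), -0.05 (controls against proliferating) and 0.02 (dual knockdown against controls). The first and second of these comparisons share the proliferating libraries, so their values are set side by side and the difference is read from the third.

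**Figure D1:**
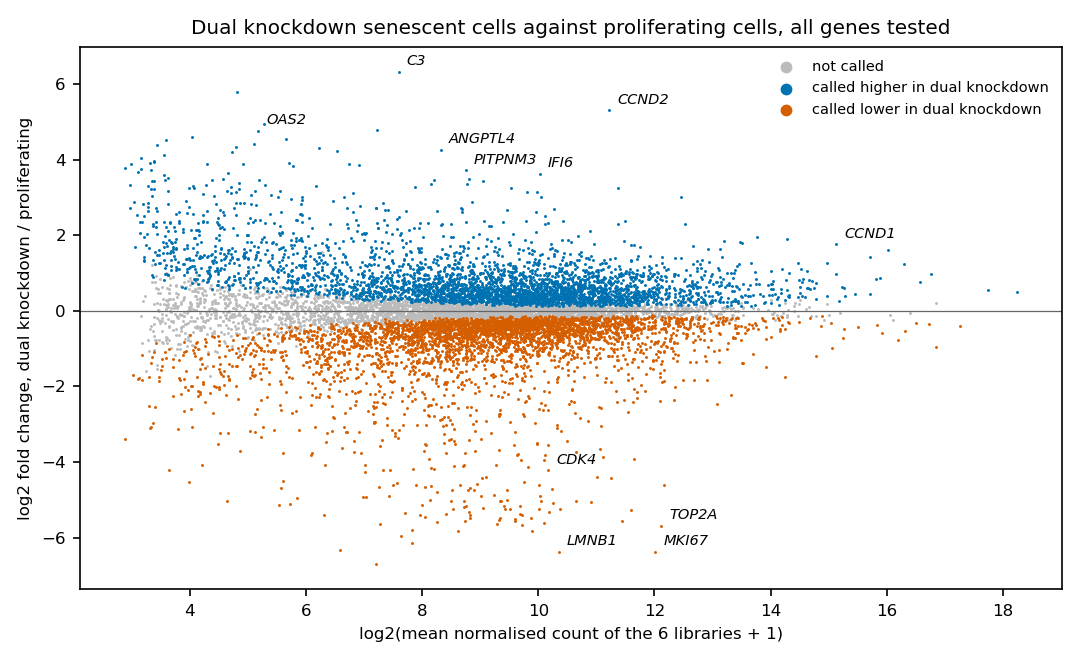
Log2 fold change of dual knockdown against proliferating cells (vertical) by mean level in the 6 libraries (horizontal, log2 scale) for the 10952 genes tested, one point per gene, coloured by the call at adjusted p under 0.05. LMNB1 and MKI67 both lie at -6.37, CDK4 at -4.21, CCND2 at 5.30 and C3 at 6.33.

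Genes of cell division were lower in dual knockdown than in proliferating cells and lower again than in the senescent controls. All 61 tested genes of G2 and mitosis (63 listed) fell against proliferating cells, with a median of -4.93; 58 of them were also below the controls, with a median of -2.11, and in the controls the median against proliferating cells was -2.72. Among 58 S phase genes 57 fell, with a median of -2.89 against -1.91 in the controls, and 53 were below the controls. Library by library, the median of the mitotic list was -4.94 to -4.62 in dual knockdown, -2.73 to -2.58 in NT3 and -2.81 to -2.66 in NT4 relative to the proliferating mean, with no overlap between the dual knockdown and either control. Of these tested members, 57 mitotic and 52 S phase genes had 10 or more normalised counts in all 6 libraries; the others were kept by the proliferating libraries alone or by part of the dual knockdown.

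MKI67, the gene of the proliferation antigen Ki-67, had 7794, 8278 and 8417 normalised counts in proliferating cells, 459 to 793 in controls and 86.1, 98.3 and 111.1 in dual knockdown. It was thus present in every dual knockdown library, at 1.21% of the proliferating mean and 14.8% of the control mean (-6.37 ± 0.14 and -2.73 ± 0.12, limma adjusted p = 3.2e-19 and 3.7e-13). TOP2A, the topoisomerase that untangles chromosomes, and DLGAP5, a spindle protein, changed by -5.68 and -5.82 against proliferating cells and by -2.52 and -2.87 against the controls. NUF2 of the kinetochore, the checkpoint kinase BUB1, the ubiquitin conjugase UBE2C and CDC20, which activates the anaphase-promoting complex, were also among the 8 largest falls, at -5.81, -5.65, -5.64 and -5.62. CCNA2, cyclin A2 of S and G2 phase, had 1939, 2044 and 1988 normalised counts in proliferating and 55.2, 110 and 86.1 in dual knockdown libraries (-4.61 ± 0.19, limma adjusted p = 6.3e-15). Among the S phase genes RRM2, a subunit of the enzyme that makes deoxyribonucleotides, went from 5918, 5975 and 6208 to 136, 179 and 155 (-5.27 ± 0.12), and was at 1080 to 1451 in the controls. CDC45, part of the replicative helicase, and POLA1, the catalytic subunit of the polymerase that starts DNA strands, changed by -5.35 and -2.88 against proliferating cells and by -2.82 and -0.67 against the controls.

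E2F and DREAM are known to act through short promoter elements, and the promoters of 3 of these genes that hold one are shown for that reason, as RefSeq gives them in GRCh38.p14, 5′ to 3′ on the gene's strand, from 250 bases before to 50 bases after the start. Capitals in the first pair mark the CHR motif, TTTGAA or its reverse complement: in MKI67 (chr10:128126374-128126673, minus strand) its first bases lie at -47 and -29 from the start, and in DLGAP5 (chr14:55191536-55191835, minus strand) 3 times, at -138, at 3 and once between. Capitals in POLA1 (chrX:24693668-24693967, plus strand) mark an E2F motif at -137.
MKI67: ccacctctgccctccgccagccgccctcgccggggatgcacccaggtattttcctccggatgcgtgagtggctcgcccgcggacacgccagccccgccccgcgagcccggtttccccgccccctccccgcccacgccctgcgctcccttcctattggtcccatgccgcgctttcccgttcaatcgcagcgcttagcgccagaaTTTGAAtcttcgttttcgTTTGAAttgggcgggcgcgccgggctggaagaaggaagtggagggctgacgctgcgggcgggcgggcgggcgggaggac
DLGAP5: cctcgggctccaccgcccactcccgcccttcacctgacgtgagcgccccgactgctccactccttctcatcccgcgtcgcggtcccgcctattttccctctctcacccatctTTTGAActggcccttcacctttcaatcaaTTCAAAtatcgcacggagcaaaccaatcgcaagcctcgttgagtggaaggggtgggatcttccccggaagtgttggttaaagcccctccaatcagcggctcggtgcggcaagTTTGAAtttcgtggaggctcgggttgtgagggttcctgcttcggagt
POLA1: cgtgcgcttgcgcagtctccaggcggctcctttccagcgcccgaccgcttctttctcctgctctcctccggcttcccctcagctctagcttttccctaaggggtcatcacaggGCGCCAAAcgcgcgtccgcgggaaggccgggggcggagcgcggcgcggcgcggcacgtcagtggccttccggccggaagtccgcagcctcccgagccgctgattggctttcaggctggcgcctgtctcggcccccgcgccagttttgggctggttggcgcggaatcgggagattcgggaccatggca
Of the 61 tested mitotic genes 52 matched the RefSeq promoter table, and 36 of these (69.2%) held TTTGAA on either strand, against 9.82% of the 8959 promoters of tested genes and 15.4% of all 27305 in the table. The CCAAT box was in 37 of the 52 and in 36.7% of tested promoters. An E2F motif (TTTGGCGC, TTTCCCGC, TTTGCCGC or TTTCGCGC, either strand) was in 24 of 50 S phase promoters (48%), against 5.45% of tested promoters and 3.33% of all. No motif searched holds another, but matches can overlap in a promoter. These are letter matches in a fixed window and not tests of binding.

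Lamin B1 fell with these genes. LMNB1, whose loss is a usual mark of senescence, had 2460, 2540 and 2739 normalised counts in proliferating cells, 126 to 217 in controls and 30.9, 24 and 37 in dual knockdown, a change of -6.37 ± 0.18 against proliferating cells and of -2.35 ± 0.15 against controls (limma adjusted p = 6.9e-18 and 7.8e-11). HMGB2, a chromatin protein also lost in senescence, went from 3902, 4081 and 3817 to 180, 189 and 194 (-4.38 ± 0.14), below all 6 controls at 339 to 650 (-1.09 ± 0.12). Over the whole list of 19 lamina, nuclear envelope and high mobility group genes, 16 fell and 2 rose in dual knockdown and likewise in the controls, and the medians were -0.82 and -0.91; against the controls 7 were lower and 5 higher, with a median of -0.13. Among 12 tested genes of the RB and E2F families, 10 fell and none rose against proliferating cells (median -0.70), and 7 were below the controls. RBL1, the gene of the RB relative p107, went from 645, 630 and 737 to 76.2, 86.3 and 65.1 (-3.13 ± 0.16), compared with 97.1 to 172 in the controls.

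The D-type cyclins, the partners of the missing kinases, were higher in dual knockdown than in proliferating cells. CCND2 (cyclin D2) had the largest rise of all genes that met the size rule (a group mean of 500 or more): 117, 119 and 112.5 normalised counts became 4707, 4920 and 4287, a log2 fold change of 5.30 ± 0.06. It was almost as high in the controls, at 3314 to 4240 (5.01 ± 0.05), and the difference between dual knockdown and controls was 0.29 ± 0.05 (limma adjusted p = 0.00011). CCND1 (cyclin D1) stood at 15928, 16520 and 16648 in proliferating and at 55663, 57565 and 52700 in dual knockdown libraries (1.76 ± 0.09). Its NT3 libraries had 33969, 36692 and 25615 and its NT4 libraries 44545, 48813 and 45546, all below the dual knockdown (0.53 ± 0.08, limma adjusted p = 2e-05). CCND3 (cyclin D3) rose by 1.15 ± 0.06 against proliferating cells and was 0.27 ± 0.05 above the controls. All 3 cyclins were therefore highest in the dual knockdown. Against NT4 alone the excess was smaller, at 0.26 for CCND1, 0.18 for CCND2 and 0.16 for CCND3 (limma adjusted p = 0.038, 0.021 and 0.043).

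The CDK inhibitors followed no common direction. CDKN1A (p21), a p53 target, had 5006, 5060 and 4963 normalised counts in proliferating cells, 28151 to 30843 in controls and 17255, 17118 and 18429 in dual knockdown. Its level in dual knockdown was 3.51 times the proliferating mean and 60.0% of the control mean (1.81 ± 0.05 and -0.74 ± 0.04, limma adjusted p = 6e-18 and 1.5e-11). CDKN2B (p15) was at 278, 260 and 301 in dual knockdown, just above the 214, 186 and 220 of proliferating cells (0.44 ± 0.10, limma adjusted p = 0.00044) and below all controls (467 to 513; -0.77 ± 0.08). CDKN2A, the locus of p16 and p14ARF, which gene counts do not separate, was at 134, 139 and 134 in dual knockdown and 192, 194 and 210 in proliferating cells. That was a change of -0.55 against proliferating cells and of -0.68 against controls (limma adjusted p = 0.00032 and 1.2e-05); in the controls CDKN2A was not called (0.14 ± 0.10), except after median centring (0.26, limma adjusted p = 0.028) or quantile normalisation. CDKN2C (p18), an inhibitor of CDK4 and CDK6 known to be an E2F target, went from 719, 795 and 808 to 25.4, 37.1 and 31 (-4.60 ± 0.19) and differed from the controls by -1.30 ± 0.16, with no overlap. Of the 9 tested inhibitors and D-type cyclins (10 listed), 5 rose and 4 fell against proliferating cells.

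Most p53 target genes remained above the proliferating level. Of 36 tested (37 listed), 29 rose, 2 fell and 5 were not called, with a median of 0.88; in the controls 33 rose with a median of 0.94. Against the controls 18 were lower and 8 higher, with a median of -0.17. GDF15, a stress-induced secreted factor, had 193, 221 and 198 normalised counts in proliferating cells, 5056 to 7139 in controls and 1780, 1673 and 2018 in dual knockdown (3.15 ± 0.11 against proliferating cells and -1.66 ± 0.10 against controls, limma adjusted p = 3.5e-16 and 1.4e-11). MDM2, which targets p53 for degradation, rose by 0.97 ± 0.06 and differed from the controls by -0.71 ± 0.05. TNFRSF10D, a decoy receptor for the death ligand TRAIL, went the other way: 1954, 1944 and 2012 became 9953, 9176 and 10141, above NT3 at 2916 to 3404 and NT4 at 4423 to 5777 (1.29 ± 0.07 against controls). DDB2, a DNA repair protein, was 1 of the 2 that fell, from 523, 605 and 587 to 498, 420 and 447 (-0.33 ± 0.09, limma adjusted p = 0.0027).

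**Figure D2:**
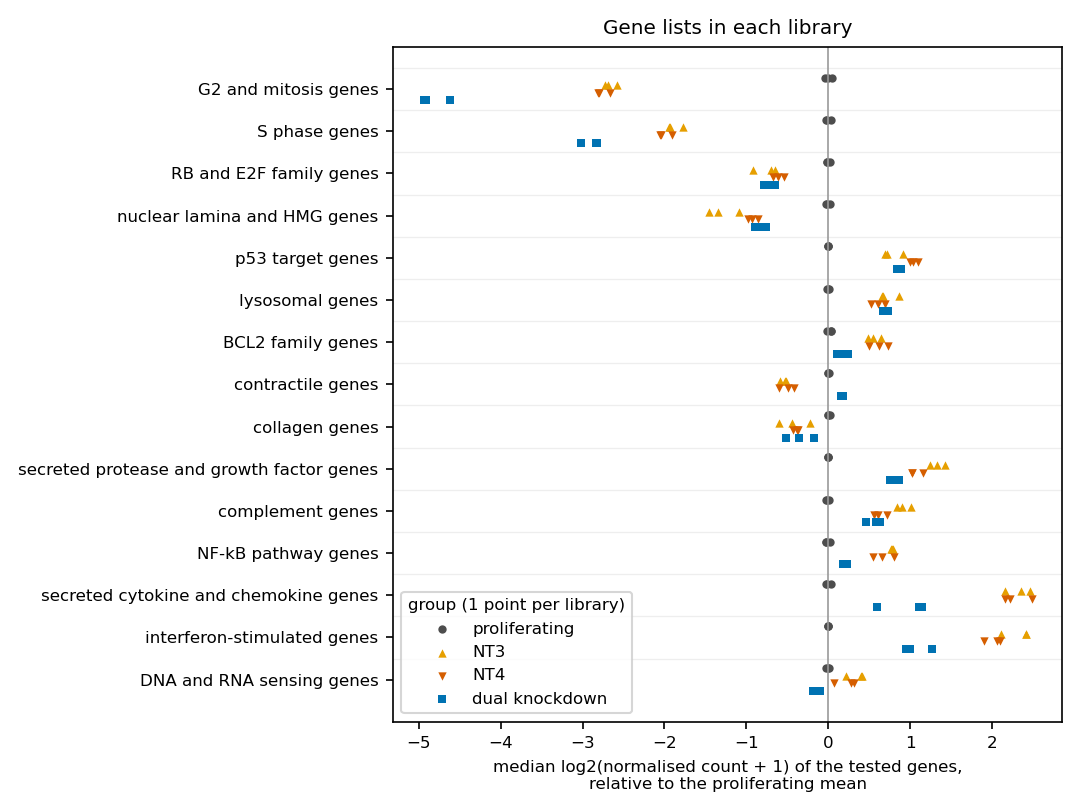
Median over the tested genes of each list of log2(normalised count + 1) relative to the proliferating mean (horizontal axis), one point per library, for 15 lists (rows) and 4 groups. Dual knockdown squares lie left of both controls for the cell division lists and between the proliferating libraries and the controls for cytokines, NF-kB and interferon-stimulated genes, while the contractile list is at 0.15 to 0.18 in dual knockdown and at -0.61 to -0.42 in the controls.

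Cytokines and chemokines of the secretory phenotype were raised over proliferating cells in part, and were lower than in the controls. Of 30 listed genes 16 passed the filter on level, and 9 had 10 or more normalised counts in all 6 libraries. A member near 0 in proliferating cells, such as CXCL1, passed only through the dual knockdown, so that its rise was fixed by the filter. The rise of CXCL1 is among those counted here. Against proliferating cells 9 of the 16 rose and 3 fell (median 0.93), in the controls 12 rose and 1 fell (median 2.30), and against the controls 14 of 16 were lower and none higher (median -1.15). CXCL8 (interleukin-8), which attracts neutrophils, had 44.5, 40.4 and 48.7 normalised counts in proliferating cells, 5131, 5495 and 6662 in NT3, 1602, 2583 and 1640 in NT4 and 263, 390 and 234 in dual knockdown. That was 6.63 times the proliferating mean and 7.67% of the control mean (2.67 ± 0.30 and -3.51 ± 0.26, limma adjusted p = 1e-07 and 7.2e-10); against NT3 alone the difference was -4.31 and against NT4 alone -2.71. IL6, a central cytokine of this phenotype, was at 80.4, 53.2 and 91.2 in proliferating cells and 230, 260 and 219 in dual knockdown. Its controls differed from each other, at 1824, 1919 and 2993 in NT3 and 408, 682 and 451 in NT4, and both lay above the dual knockdown. IL6 rose by 1.68 ± 0.27 over proliferating cells (limma adjusted p = 1.2e-05) and differed by -3.21 from NT3 but by -1.08 from NT4 (limma adjusted p = 3.8e-09 and 0.003).

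IL1B, an upstream cytokine of the secretory phenotype, was close to its proliferating level in dual knockdown. It had 8.73, 14.9 and 17.7 normalised counts in proliferating cells, 542, 638 and 774 in NT3, 177, 299 and 237 in NT4 and 26.5, 18.6 and 27 in dual knockdown. The difference from proliferating cells was 0.79 ± 0.27 and was called by limma (adjusted p = 0.012) but not by edgeR on the recovered reads (adjusted p = 0.11) or without the first proliferating library (limma adjusted p = 0.10), whereas the difference from the controls was -3.97 ± 0.23 (limma adjusted p = 1.4e-11), or -4.71 from NT3 and -3.24 from NT4. CXCL1, another neutrophil chemokine, had 2.62, 4.26 and 0 in proliferating cells and 46.4, 51.3 and 48.1 in dual knockdown, a fold that rests on few proliferating reads and on a gene that passed the filter only through the dual knockdown (4.21, or 3.51 without the third proliferating library), and differed from the controls by -3.39 ± 0.46, or by -4.65 from NT3 and -2.14 from NT4. IL1A, CXCL2, CXCL3 and CSF2 failed the filter on level and were not tested. IL1A had 0.873, 2.13 and 5.31 normalised counts in proliferating cells, 22.1, 14.2 and 8.01 in dual knockdown, 222, 265 and 241 in NT3 and 74.6, 140 and 129 in NT4. CSF2 had at most 2.13 in proliferating and 12.0 in dual knockdown libraries and 34.5 to 294 in the controls. The chemokine CXCL12, which fibroblasts express at rest, fell from 140, 143 and 153 to 30.9, 62.2 and 51.1 (-1.63 ± 0.19, limma adjusted p = 1.2e-07).

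Most secreted proteases, inhibitors and growth factors were raised over proliferating cells. Of 39 tested genes (42 listed), 30 rose and 3 fell against proliferating cells with a median of 0.79, in the controls 32 rose with a median of 1.14, and against the controls 23 were lower and 8 higher. MMP3 (stromelysin) had 27.1, 30.9 and 32.8 normalised counts in proliferating cells, 529 to 820 in controls and 195, 233 and 208 in dual knockdown (2.77 ± 0.15 and -1.58 ± 0.13). PLAU, the activator urokinase, rose by 0.79 ± 0.10 and differed from the controls by -0.97 ± 0.08. MMP1 (interstitial collagenase) stood apart from these: its dual knockdown libraries, at 1994, 2190 and 1955, overlapped the proliferating ones at 2107, 2337 and 2335, while the controls had 5856 to 7986. The difference from proliferating cells was -0.14 ± 0.09 (limma adjusted p = 0.15, and 0.03 when only the compared groups were fitted) and that from the controls -1.73 ± 0.07 (limma adjusted p = 2e-13). IGF2, a growth factor, fell against proliferating cells, from 299, 255 and 305 to 151, 139 and 173 (-0.89 ± 0.25, limma adjusted p = 0.004).

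Of 25 NF-kB pathway and feedback genes, 11 rose and 5 fell against proliferating cells (median 0.21), 18 rose and 4 fell in the controls (median 0.77), and 18 were lower and none higher than the controls (median -0.51). ICAM1, an adhesion molecule for leukocytes, had 660, 664 and 660 normalised counts in proliferating cells, 2605 to 4608 in controls and 2417, 2481 and 2188 in dual knockdown (1.83 ± 0.12 and -0.59 ± 0.10, limma adjusted p = 1.4e-11 and 8.7e-05). NFKBIZ, a nuclear cofactor of NF-kB, rose by 1.59 ± 0.19 and differed from the controls by -1.18 ± 0.17. TNFAIP3 (A20), a deubiquitinase that ends NF-kB signalling, was among the genes raised most in the controls and nearest to proliferating cells in dual knockdown: 190, 204 and 167 in proliferating, 682 to 1489 in controls and 187, 305 and 230 in dual knockdown. Its difference from proliferating cells was 0.34 ± 0.22 (limma adjusted p = 0.18), and the libraries overlapped; that from the controls was -2.04 ± 0.19 (limma adjusted p = 2e-08). Quantile normalisation, which forces the same distribution on every library, raised the first value to 0.51 and the call was then made (limma adjusted p = 0.042).

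The promoters of TNFAIP3 (chr6:137867009-137867308, plus strand) and CXCL1 (chr4:73869143-73869442, plus strand) are shown because they hold the NF-kB motif searched here (GGG and TTTCC separated by 2 bases of any kind), in capitals, at -67 and -55 and at -79, and because their genes ended at different distances from the proliferating level.
TNFAIP3: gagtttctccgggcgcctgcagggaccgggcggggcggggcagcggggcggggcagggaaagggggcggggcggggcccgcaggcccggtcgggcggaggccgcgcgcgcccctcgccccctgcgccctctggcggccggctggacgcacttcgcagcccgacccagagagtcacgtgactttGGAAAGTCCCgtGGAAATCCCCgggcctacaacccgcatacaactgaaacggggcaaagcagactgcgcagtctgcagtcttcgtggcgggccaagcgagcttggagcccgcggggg
CXCL1: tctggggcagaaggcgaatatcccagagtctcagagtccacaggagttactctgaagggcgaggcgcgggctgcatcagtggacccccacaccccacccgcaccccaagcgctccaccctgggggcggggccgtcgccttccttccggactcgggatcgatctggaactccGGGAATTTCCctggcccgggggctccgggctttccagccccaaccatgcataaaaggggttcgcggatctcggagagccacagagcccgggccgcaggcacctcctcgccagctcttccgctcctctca
That motif was in 7 of 22 matched promoters of the NF-kB list (31.8%) and 3 of 11 of the cytokine list (27.3%), against 2.05% of tested promoters and 1.92% of all in the table, on either strand.

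Complement genes, secreted by senescent fibroblasts and the liver, were mostly raised over proliferating cells. Of 12 tested (18 listed), 9 rose and 2 fell against proliferating cells with a median of 0.56, next to 10 and 1 with a median of 0.80 in the controls; against the controls 6 were lower and 2 higher. C3, the central component, had 7.86, 3.19 and 1.77 normalised counts in proliferating cells, 2960, 3065 and 2313 in NT3, 1186, 1821 and 1255 in NT4 and 400, 446 and 296 in dual knockdown. It passed the filter on level only through the dual knockdown, so its log2 fold change of 6.33 over proliferating cells, from very few reads, is a description. It differed from the controls by -2.38 ± 0.32 (limma adjusted p = 4e-06). C7, of the membrane attack complex, rose by 2.09 ± 0.13, beside 1.83 ± 0.11 in the controls.

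Interferon-stimulated genes lay between proliferating cells and controls. Of 45 tested (50 listed), 36 rose, 3 fell and 6 were not called against proliferating cells, with a median of 1.06; in the controls 42 rose with a median of 2.08; and 42 were lower and none higher than in the controls, with a median of -1.66. Only 35 of the 45 had 10 or more normalised counts in all 6 libraries; a member near 0 in proliferating cells, such as IFI44L or OAS2, passed the filter only through the dual knockdown, so that its rise was fixed by the filter. MX1, an antiviral GTPase, had 48, 34.1 and 45.2 normalised counts in proliferating cells, 4791, 3499 and 5337 in NT3, 1997, 2589 and 2528 in NT4 and 457, 487 and 328 in dual knockdown. That was 10.0 times the proliferating mean and 12.3% of the control mean (3.29 ± 0.25 and -2.95 ± 0.22, limma adjusted p = 2.2e-10 and 6.5e-10). IFI6, which was among the 8 largest rises, went from 142, 144 and 163 to 2011, 2504 and 1281 (3.63 ± 0.22), with NT3 at 10359 to 15635 and NT4 at 6370 to 8872. IRF9, the DNA-binding part of the factor that type I interferon activates, went from 393, 394 and 445 to 849, 905 and 821 (1.06 ± 0.08), and was at 1344 to 1610 in the controls. IFI44L and OAS2 had at most 3.54 normalised counts in any proliferating library, 36 to 39 and 61.1 to 75.1 in dual knockdown and 436 to 695 and 444 to 1057 in the controls, so that they differed from the controls by -3.81 ± 0.27 and -3.37 ± 0.35. OAS3, which makes the messenger that activates RNase L, was below proliferating cells: 172, 212 and 109.1 against 332, 362 and 330 (-1.10 ± 0.26, limma adjusted p = 0.00084), with the controls at 794 to 1491 (-2.89 ± 0.23).

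The promoters of IFI6 (chr1:27672143-27672442, minus strand) and OAS3 (chr12:112938224-112938523, plus strand) are shown because these genes ended above and below the proliferating level, respectively, and both hold the interferon-stimulated response element searched here (GAAA and GAAA separated by 2 bases of any kind), in capitals: 3 times in IFI6, at -156, -115 and -93, and 2 times in OAS3, at -143 and -12.
IFI6: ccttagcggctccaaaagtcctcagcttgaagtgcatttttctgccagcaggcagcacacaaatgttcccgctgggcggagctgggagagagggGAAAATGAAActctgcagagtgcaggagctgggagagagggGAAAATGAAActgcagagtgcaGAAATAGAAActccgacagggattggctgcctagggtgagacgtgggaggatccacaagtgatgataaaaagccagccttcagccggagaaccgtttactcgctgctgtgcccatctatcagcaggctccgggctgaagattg
OAS3: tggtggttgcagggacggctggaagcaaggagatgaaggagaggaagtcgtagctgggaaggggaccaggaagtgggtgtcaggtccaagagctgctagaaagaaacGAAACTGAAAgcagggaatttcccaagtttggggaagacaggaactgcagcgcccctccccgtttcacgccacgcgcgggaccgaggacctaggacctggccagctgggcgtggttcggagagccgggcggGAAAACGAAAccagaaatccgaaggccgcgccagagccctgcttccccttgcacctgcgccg
The element was in 24 of 35 matched promoters of interferon-stimulated genes (68.6%), against 2.76% of tested promoters and 3.65% of all, on either strand.

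Of 15 tested genes for sensing DNA and RNA in the cytoplasm (20 listed), 2 rose and 6 fell against proliferating cells, 8 rose and 5 fell in the controls, and 11 were lower and none higher than in the controls (median -0.81). RIGI, IFIH1 and DHX58 are also on the interferon-stimulated list. The median against proliferating cells was -0.07, and its sign changed between processing settings. RIGI, the RNA sensor RIG-I, was 1 of the 2 that rose, from 422, 430 and 438 to 865, 1036 and 898 (1.11 ± 0.11), with the controls at 1482 to 1842. CGAS, the DNA sensor that makes cyclic GMP-AMP, went from 126, 137 and 143 to 51.9, 38.2 and 40 (-1.63 ± 0.18) and differed from the controls by -0.81 ± 0.15. RNASEH2A, which removes RNA from RNA-DNA hybrids, changed by -2.82 against proliferating cells and by -0.96 against the controls (limma adjusted p = 8.4e-13 and 6.2e-06).

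Lysosomal genes remained raised. Of 43 tested (48 listed), 36 rose and 2 fell against proliferating cells with a median of 0.71, beside 37 and 4 with a median of 0.65 in the controls; against the controls 16 were higher, 10 lower and 17 not called, with a median of 0.06. GLB1, the beta-galactosidase behind the senescence stain, had 1367, 1479 and 1363 normalised counts in proliferating cells, 1754 to 1958 in controls and 2221, 2075 and 2064 in dual knockdown (0.60 ± 0.05 and 0.20 ± 0.04, limma adjusted p = 1.5e-09 and 0.00091). The dual knockdown libraries were above all 6 controls. LGMN, the protease legumain, rose by 1.81 ± 0.11 beside 1.62 ± 0.10 in the controls, and GLA, alpha-galactosidase A, by 0.71 ± 0.10 beside 0.88 ± 0.08.

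Among 13 tested BCL2 family genes, which set the threshold of apoptosis, 7 rose and 1 fell against proliferating cells, 10 rose and 2 fell in the controls, and 7 were below and 1 above the controls. BCL2L2 (BCL-w), which opposes apoptosis, went from 856, 893 and 873 to 2083, 2217 and 2099 (1.29 ± 0.05), and 2 of its 3 libraries lay within the 1961 to 2187 of the controls. The fall was that of BCL2, from 107.4, 98.97 and 104.5 to 38.6, 34.9 and 44 (-1.39 ± 0.26, limma adjusted p = 9.1e-05), beside -1.87 ± 0.23 in the controls. PMAIP1 (NOXA), which promotes apoptosis, was at 1474, 1612 and 1499 in proliferating cells, 2378 to 3074 in controls and 1653, 1687 and 1804 in dual knockdown, a difference of -0.67 ± 0.05 from the controls (limma adjusted p = 2.1e-09).

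Genes of the contractile cytoskeleton sat lower in the senescent controls than in either proliferating or dual knockdown cells. Of 19 tested (22 listed), 14 fell and 1 rose in the controls against proliferating cells (median -0.56), whereas in dual knockdown 10 rose and 6 fell (median 0.16); against the controls 16 were higher and 1 lower, with a median of 0.61. MYL9, a myosin light chain, had 14283, 14317 and 13867 normalised counts in proliferating cells, 13279 to 16873 in controls and 24790, 24979 and 25347 in dual knockdown (0.82 ± 0.07 and 0.70 ± 0.06, limma adjusted p = 5.7e-10 and 3.6e-09). CSRP1, a LIM protein of actin bundles and the member nearest the median, had 9662, 9594 and 9704 in proliferating cells, 5869 to 8076 in controls and 10596, 10906 and 10842 in dual knockdown. Its rise over proliferating cells was 0.16 ± 0.06 (limma adjusted p = 0.016), and 0.08 with quantile normalisation, where it was not called (limma adjusted p = 0.17). FLNA (filamin A) and TPM4 (a tropomyosin) stayed below proliferating cells, at -0.76 ± 0.14 and -0.72 ± 0.05, but were above the controls by 0.54 ± 0.12 and 0.31 ± 0.04. For TPM4 the difference from the controls was 0.06 with quantile normalisation and was not called (limma adjusted p = 0.28).

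Collagens were mixed against proliferating cells and mostly above the controls. Of 22 tested (23 listed), 8 rose and 12 fell against proliferating cells (median -0.34), 3 rose and 16 fell in the controls (median -0.43), and 14 were higher and 2 lower than in the controls (median 0.30). COL11A1 went from 220, 265 and 229 to 726, 815 and 716 (1.66 ± 0.12), above the controls at 312 to 464. COL5A3 went from 641, 646 and 646 to 67.3, 50.2 and 63.1 (-3.41 ± 0.12), below the controls at 120 to 166. COL15A1 fell from 4712, 4845 and 4642 to 1208, 706 and 914 (-2.36 ± 0.14), beside -2.45 ± 0.12 in the controls. Among the 12 fibroblast markers, whose sums are given above, 8 were higher and none lower than in the controls (median 0.42), and 4 rose and 6 fell against proliferating cells.

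**Figure D3:**
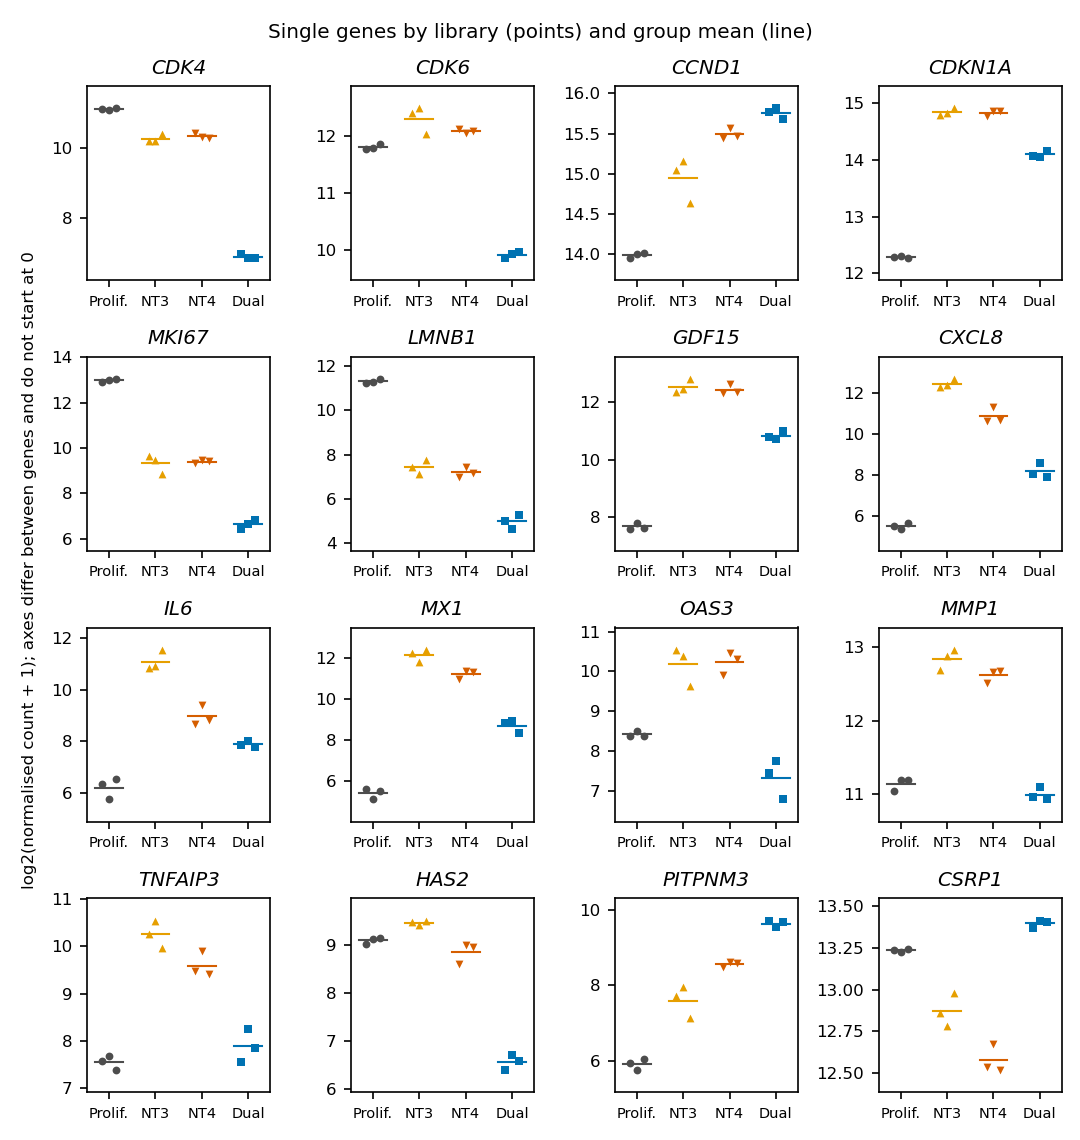
Log2(normalised count + 1) of 16 genes (one panel each, with its own vertical axis) in every library of proliferating cells, NT3, NT4 and dual knockdown, with the group mean as a line. CDK4 and CDK6 are lowest in dual knockdown; CXCL8, IL6 and MX1 lie between proliferating cells and controls; MMP1 and TNFAIP3 overlap the proliferating libraries; OAS3 and HAS2 lie below them and PITPNM3 and CSRP1 are highest in dual knockdown.

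Beyond the lists, the 8 largest rises over proliferating cells were CCND2, ANGPTL4, PITPNM3, IFI6, H2BC21, MEDAG, NPDC1 and ANKRD1. ANGPTL4, a secreted inhibitor of lipoprotein lipase, went from 31.4, 25.5 and 35.4 to 602, 583 and 632 (4.26 ± 0.13), beside 4.56 ± 0.11 in the controls, and the histone gene H2BC21 rose by 3.48 ± 0.09 beside 3.52 ± 0.07. NPDC1 rose by 3.44 ± 0.11, beside 3.23 ± 0.09 in the controls. PITPNM3 and MEDAG were raised in the controls and further in the dual knockdown. PITPNM3, a phosphatidylinositol transfer protein, had 61.1, 53.2 and 65.5 normalised counts in proliferating cells, 140 to 246 in NT3, 358 to 394 in NT4 and 841, 743 and 814 in dual knockdown (3.72 ± 0.13 and 1.56 ± 0.12, limma adjusted p = 4.7e-16 and 6.4e-10). MEDAG, known for a part in fat cell differentiation, rose by 3.46 ± 0.13 and was 1.42 ± 0.11 above the controls. ANKRD1, a target of YAP, had 48.9, 45.8 and 51.4 in proliferating and 428, 650 and 480 in dual knockdown libraries (3.37 ± 0.15). Its controls lay on both sides, at 682 to 888 in NT3 and 154 to 206 in NT4, so that the dual knockdown differed by -0.65 from NT3 and by 1.55 from NT4 (limma adjusted p = 0.0012 and 4.7e-08).

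Some genes were called in dual knockdown against both proliferating cells and controls, although they had moved little in the controls. Little means an absolute log2 fold change under 0.5 against proliferating cells, with NT3 and NT4 averaged. At a group mean of 500 or more, 901 of these were higher and 438 lower than proliferating cells. Their direction against the controls was not part of the rule, but for the largest changes named below the small change in the controls fixed it. Over all genes tested, 32.8% were called higher and 34.7% lower than proliferating cells, and 44.9% were called against the controls. How many genes met the limits on level and small change alone was not counted. The 5 largest falls of this kind were HAS2, CDK6 itself, MME, CD274 and SNHG1. HAS2, the main hyaluronan synthase of fibroblasts, had 521, 558 and 563 normalised counts in proliferating cells, 680 to 728 in NT3, 388 to 508 in NT4 and 82.8, 103.7 and 94.1 in dual knockdown (-2.54 ± 0.12 and -2.60 ± 0.10, limma adjusted p = 4e-14 and 4.1e-14). MME, the surface peptidase CD10, went from 2087, 2187 and 2241 to 693, 763 and 760 (-1.56 ± 0.09), with the controls at 1693 to 1988. CD274, the checkpoint ligand PD-L1, went from 657, 786 and 703 to 246, 273 and 255 (-1.46 ± 0.09), with the controls at 445 to 656, and the RNA host gene SNHG1 changed by -1.42 ± 0.10. The largest rises were VSIR, CD4, EDIL3, MAN1C1 and XYLT2. VSIR, the immune checkpoint protein VISTA, had 362, 335 and 315 in proliferating cells, 315 to 488 in controls and 993, 907 and 897 in dual knockdown (1.46 ± 0.11 and 1.17 ± 0.09). CD4, best known from T cells, had 274, 267 and 258 in proliferating cells and 745, 639 and 743 in dual knockdown. It was at 237 to 248 in NT3 and 467 to 487 in NT4, and the pan-leukocyte gene PTPRC and the T cell gene CD3E had no read in the proliferating libraries; CD3E had none in dual knockdown. EDIL3, a secreted integrin ligand, rose by 1.25 ± 0.07, the mannosidase MAN1C1 by 1.16 ± 0.10 and XYLT2, which starts glycosaminoglycan chains, by 1.15 ± 0.06.

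Other genes changed in the controls and lay within 0.5 of proliferating cells on the log2 scale in the dual knockdown. This rule was met by 862 that were raised and 1519 that were lowered in the controls. It requires no call between dual knockdown and controls. For the genes named below, a large change in the controls was part of the choice. That choice fixed the direction and a least size of their difference from the controls, which is given as a description. Of all genes tested, 3404 (31.1%) were called higher and 4178 (38.1%) lower in the controls, 912 and 881 by more than 1. The lowered count exceeds 881, so it includes genes that changed by 1 or less in the controls. These counts therefore do not measure a return to the proliferating level. Genes that changed little in both groups were not counted apart. The largest of the raised were TNFAIP3, SAMD9, NAMPT, PRDM1 and HMOX1. NAMPT, the rate-limiting enzyme of NAD salvage, had 947, 955 and 908 normalised counts in proliferating cells, 2494 to 3645 in controls and 1135, 1300 and 1198 in dual knockdown, where it was still called higher (0.37 ± 0.10, limma adjusted p = 0.0022) and differed from the controls by -1.33 ± 0.08. HMOX1 (haem oxygenase 1) was 0.30 ± 0.10 above proliferating cells (limma adjusted p = 0.0096, and 0.056 without the first dual knockdown library) and differed from the controls by -1.32 ± 0.08. SAMD9, an interferon-induced antiviral factor, was 0.47 ± 0.14 above proliferating cells and differed from the controls by -1.30 ± 0.12. Among the lowered, OXTR, the oxytocin receptor, had 931, 938 and 962 in proliferating cells, 248 to 376 in controls and 743, 862 and 884 in dual knockdown. Its dual knockdown libraries were all below the proliferating ones, although the difference was not called (-0.19 ± 0.11, limma adjusted p = 0.14). When only the compared groups were fitted, the limma adjusted p was 0.018. The OXTR level in dual knockdown was 1.34 ± 0.10 above the controls. PDGFRB, the receptor for platelet-derived growth factor, stood at 6258, 6398 and 6242 in proliferating and at 1976 to 3716 in control libraries. In dual knockdown it was at 5419, 4810 and 4988, which was 0.76 ± 0.08 above the controls.

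To read the senescent programme across the genes tested without shared libraries, genes were chosen in NT3 against proliferating cells and read in dual knockdown against NT4. The filter on level used the dual knockdown and proliferating libraries only. A gene near 0 in proliferating cells was therefore read only if it kept 10 or more normalised counts in dual knockdown. IL1A, CXCL2, CXCL3 and CSF2, high in NT3, were left out in this way. The raised genes read here thus lean towards those that kept expression in dual knockdown. In the first comparison 993 genes (9.07%) were called higher and 1043 (9.52%) lower by more than 1. In the second, 4121 of all genes tested were called (37.6%), 2136 higher (19.5%) and 1985 lower (18.1%). Of the 993 raised genes, 312 (31.4%) were lower in dual knockdown than in NT4, 170 (17.1%) higher and 511 not called, with a median of -0.13, beside 0.01 over all genes. By more than 1, 135 of the 993 (13.6%) were lower and 24 higher, beside 415 (3.79%) and 75 of all genes tested. Of the 1043 lowered genes, 425 (40.7%) were lower still in dual knockdown, 96 (9.2%) were higher and 522 were not called, with a median of -0.25. Here 179 (17.2%) were lower and 8 higher by more than 1. Thus about as many of the raised as of the lowered genes showed no call between dual knockdown and NT4, and a missing call does not show that a gene was equal in the 2 groups.

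**Figure D4:**
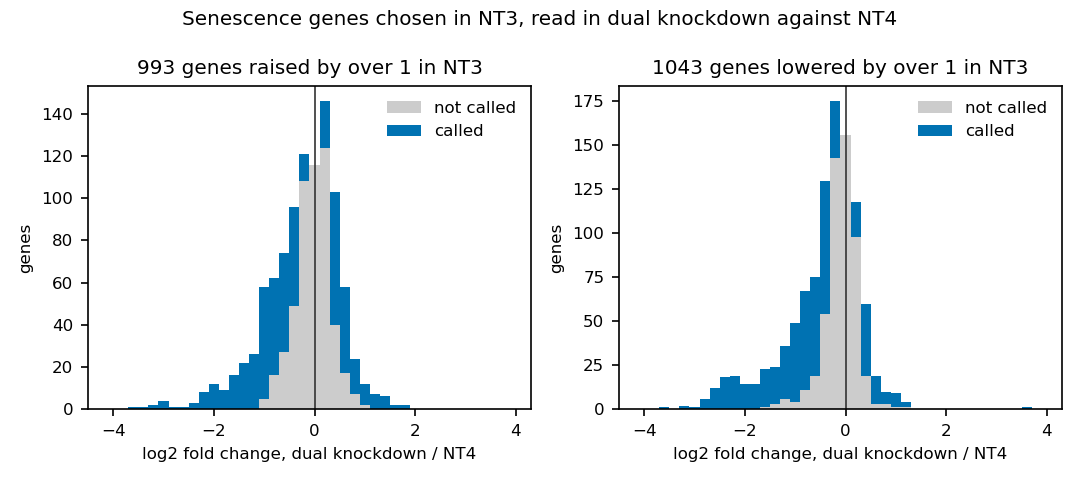
Histograms of log2 fold changes of dual knockdown against NT4 (horizontal axis; bars count genes) for the 993 genes raised and the 1043 genes lowered by more than 1 in NT3 against proliferating cells, stacked by whether the gene was called. In both panels the centre lies near 0, with medians of -0.13 and -0.25, and the longer tail reaches to the left.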

How the data were processed

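RNA was measured by poly(A)-selected RNA-seq of IMR90 cells. Per the submitters' processing notes, Trimmomatic 0.38.1, FastQC 0.74, MultiQC, HISAT2 2.2.1, featureCounts 2.0.3 and DESeq2 2.11.40.8 were used with GRCh38. The authors deposited a signal of normalised counts for 16383 genes, with no Entrez ID above 140467. These values were whole multiples of 1 read per library for 100% of entries (tolerance 0.1 read), so whole reads were recovered. Groups were assigned from the column names, which carry no replicate number. All 21 libraries in 7 groups were fitted with limma 3.58.1 (R 4.3.3) on log2(value + 1), trended variance, 14 residual degrees of freedom, two-sided. edgeR 4.0.16 on the recovered reads called 7405, 7650 and 4882 genes in the 3 comparisons, and DESeq2 1.42.0 7404, 7650 and 4920. The fits were tested on simulated data. Members and gene lists were chosen with earlier results of these data known. Some genes are on more than 1 list, such as GDF15 among the p53 targets and the secreted growth factors. Named genes are a panel of 25, the 8 largest changes each way at a group mean of 500 or more, up to 4 members per list at 100 or more, and the 5 largest each way of the rules on controls given in the text. Other alternatives were pseudocounts, filters, scalings, one control at a time and leaving out each library. Promoters were matched by gene ID to RefSeq. A few listed genes are not reported here.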

Additional observations from a re-analysis of the deposited data

How the results depend on the processing

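All values given for single genes kept their sign under every alternative run. With a log2 fold change over 1 required as well, calls fell to 1978 for dual knockdown against proliferating cells, 1793 for controls against proliferating cells and 478 for dual knockdown against controls. Keeping only genes with a mean of 100 or more left 172 genes raised in NT3 and lower in dual knockdown than in NT4, in place of 312, from fewer genes tested. Leaving out 1 library of the groups compared at a time gave 6893 to 6976, 7005 to 8077 and 4092 to 5748 calls in the 3 comparisons, in the order above. Leaving out a control library, which enters dual knockdown against proliferating cells only through the shared spread, gave it 7335 to 8039. The genes chosen in NT3 were also read with any 1 proliferating, control or dual knockdown library left out. Of the raised genes, 265 to 346 were then lower and 144 to 192 higher in dual knockdown than in NT4. Of the lowered genes, 384 to 460 were lower. The compared groups alone gave 3618 calls against controls, in place of 4915. Genes with few proliferating reads depend most on single libraries: OAS2 had a log2 fold change of 4.77, and of 4.09 without the second proliferating library. With a pseudocount of 10 in place of 1, the log2 fold changes were 2.71 for OAS2, 2.27 for CXCL1 and 4.78 for C3, and CDC45 and NUF2 changed by -4.42 and -5.10. The codes in the column names of the 18 irradiated libraries fall into sets of 6 in a row, each with 1 library per group. With these sets as a replicate block, chosen after seeing the data, dual knockdown against controls had 4684 calls, and 4684 without the block in the same libraries, of which 4575 were shared. The sets are not a stated pairing. In dual knockdown, NT3 and NT4, deviations from group means correlated above 0.1 in 2 of 9 same-set and 3 of 18 different-set pairs. Of these 9 libraries, 2 correlated best with their own set. Over all irradiated groups, 8 of 45 same-set and 5 of 90 different-set pairs were above 0.1, with medians of 0.04 and -0.01. For comparisons with proliferating cells no paired analysis was possible because their libraries belong to no set.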

Other observations

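Of 26 tested amino acid and ATF4 genes (27 listed), 2 rose and 16 fell in dual knockdown against proliferating cells (median -0.49), beside 5 and 17 in the controls (median -0.37). PSAT1, an enzyme of serine synthesis, went from 3127, 3187 and 3148 normalised counts to 1108, 859 and 943 (-1.71 ± 0.10, limma adjusted p = 3.7e-12), with the controls at 780 to 976. ATF3, a stress-induced factor, was 1 of the 2 that rose, from 164, 162 and 141 to 317, 432 and 275 (1.11 ± 0.14), with the controls at 804 to 1334. Of 24 cholesterol synthesis genes, 10 rose and 8 fell, beside 10 and 10 in the controls. Of 74 tested ribosomal protein genes (76 listed), 35 fell and 2 rose against proliferating cells (median -0.24), and none was lower and 1 higher than in the controls.

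Of 18 listed genes of class I antigen presentation 9 passed the filter on level, and 1 rose and 4 fell against proliferating cells. HLA-C had at most 6.62 normalised counts in the 6 libraries, and HLA-F and PSMB9 were listed at 0 in them, as were C2, C4A, C4B and NEU1 of the complement and lysosomal lists and MIF of the cytokine list. Genes that most human cells express are among these, so their values are not read as absent expression, and how the reads of these genes were counted was not tested. The counts of these lists cover only their other members. The column names carry running codes of unstated meaning, and those of the proliferating libraries come after those of all irradiated libraries.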
